A study of Mus musculus with 3 samples.

Results

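The genes described here are 40 mouse genes of the antioxidant, glutathione and thioredoxin systems. They were chosen by name as members of these systems, with earlier results of these data known. They were found on the arrays as the probes, other than control probes, whose RefSeq transcript belonged to 1 of these genes. All 40 were on the array, with 55 probes of 33759 that could be named, among 23458 named genes in all. Of the 40 genes, 26 had 1 probe, 13 had 2 probes and Prdx1 had 3.

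The arrays compared blastocysts of ICR mice from young females (3-6 weeks of age), from aging females (43-53 weeks of age), and from aging females with CXCL5-CXCR2 signaling suppressed during culture. In the third group the medium held an anti-CXCL5 neutralizing antibody at 10 μg/ml and a selective CXCR2 antagonist at 10 nM, given together, so that the effect of either agent cannot be told apart from the other. All females were super-ovulated and mated, zygotes were flushed from the oviducts at 18 h after hCG, and the embryos of every group were cultured in KSOM for 96 h. Each group was 1 pool of 30 blastocysts on 1 array with 1 colour, and the females behind a pool are not named in the labels. There was therefore no replicate and no test: the comparisons below are differences between 3 pools. Culture vessel, litter and array cannot be told apart from age and treatment.

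Superoxide dismutases turn superoxide into hydrogen peroxide, which catalase, glutathione peroxidases and peroxiredoxins reduce. The last of these groups depend on glutathione and thioredoxin, which glutathione reductase and the thioredoxin reductases return to their reduced form with NADPH. Many genes of these systems are targets of the transcription factor NRF2, encoded by Nfe2l2, which KEAP1 binds and marks for degradation until oxidants modify KEAP1. NRF2 binds, with a small MAF protein, to the antioxidant response element. In the preimplantation embryo these enzymes are known for their role in the tolerance of oxygen in culture.

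The core of the antioxidant response element, searched as TGACNNNGC on both strands from 250 bases before to 50 bases after the gene start, was found for 9 of the 35 genes whose promoter is in the RefSeq table of build GRCm38.p6. These were Sod1, Prdx1, Txnrd1, Gclm, Srxn1, Sesn2, Nfe2l2, Mgst1 and Ucp2. The share was 25.7%, and 14.0% of the 27025 genes in that table held the same letters. The table held no entry for Sod3, Prdx6, Gclc, Gsr and Hmox1. A related motif, TGANTCA of the AP-1 factors, was found for 4 of the 35 genes (11.4%), against 8.97% of all genes. Srxn1, an NRF2 target too, had its match at position 28 after the gene start and is not printed, since no window of bases was obtained for it. The matches of 4 genes are printed because they belong to the gene of NRF2 itself and to textbook NRF2 targets whose levels follow below. The capitals mark the matched bases.
Nfe2l2: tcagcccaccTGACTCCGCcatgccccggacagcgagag
Txnrd1: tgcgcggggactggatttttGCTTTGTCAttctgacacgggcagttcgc
Gclm: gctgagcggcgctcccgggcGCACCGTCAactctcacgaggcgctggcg
Prdx1: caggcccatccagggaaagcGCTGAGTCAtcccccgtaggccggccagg
Each is written 5′ to 3′ on the strand of its gene. The windows lie at chr2:75704875-75704913 on the minus strand, and at chr10:82859094-82859142, chr3:122245403-122245451 and chr4:116685446-116685494 on the plus strand, all upstream of the annotated start. In Txnrd1, Gclm and Prdx1 the motif is on the opposite strand, and the match of Prdx1 overlaps TGANTCA. A match describes letters and does not show that a factor is bound.

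Levels are given per probe as the log2 intensity after background subtraction minus the log2 of the 75th percentile of the array, so that 0 stands for an intensity of 145, 155 and 122 in the young, aging and suppressed pools. A level belongs to its probe, and probes of different genes are not ranked against each other. For genes with several probes, the probe with the highest mean signal stands for the gene unless others are named. Probes spotted 10 times on each array gave a standard deviation of 0.07 for the log2 difference of single spots between arrays, which covers spotting and scanning and not the spread between pools. On the 3 arrays, 33060, 33209 and 31892 of 56591 probes were well above background, and the detection limit was a level of -4.20, -4.32 and -3.93. Markers of the labelled stage were detected. All 10 trophectoderm, 8 inner cell mass and 7 primitive endoderm markers were above background on every array, as were 58.9% of all named genes. Detection alone does not establish the stage. In pooled embryos, fewer cells of a type and less RNA per cell cannot be told apart.

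Most antioxidant genes were expressed in all 3 pools. Of the 40 genes, 36 were above background on every array (90%), against 58.9% of all named genes. Gpx7 and Mgst1 were above background in the aging pool, Gpx8 in the young and suppressed pools, and Sod3, the extracellular superoxide dismutase, in none. For the 36 genes, the distance between the highest and the lowest array had a median of 0.50, from 0.10 for Glrx2 to 1.70 for Txnrd2. The same median was 0.62 over 13811 named genes and 0.52 over the 7888 of them with a mean level above 0. The arrays lay within 2-fold of each other for 33 of these genes (91.7%), and this share was 73.4% over all named genes and 83.0% over those with a mean level above 0.

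**Figure D1:**
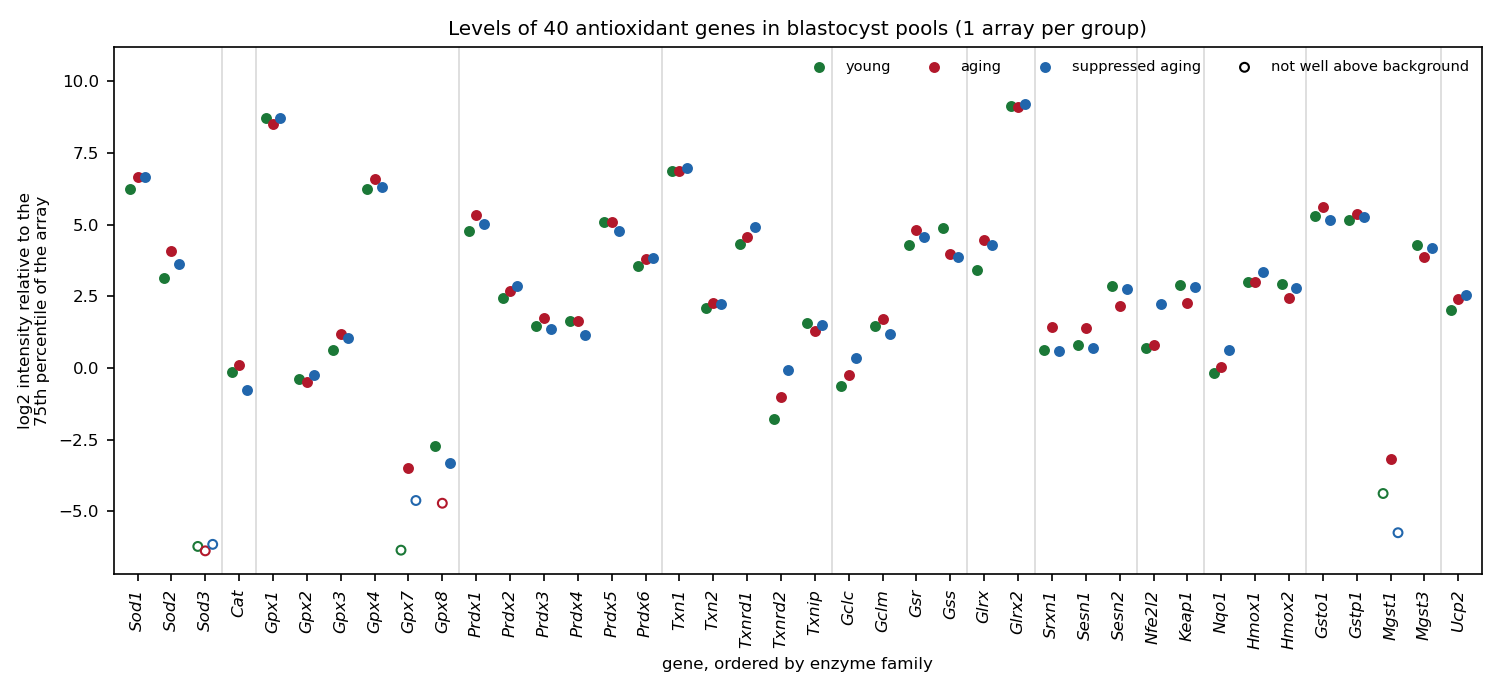
Level of each of the 40 genes on the 3 arrays (young, aging and suppressed aging pools), as log2 intensity relative to the 75th percentile of the array, with genes ordered by enzyme family and families separated by grey lines. Each point is 1 probe on 1 array of 1 pool, open points were not well above background, and 36 of the 40 genes have 3 filled points.

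In the aging pool, more of these genes were above than below their level in the young pool. Of 39 genes that could be compared, 28 were higher and 11 lower, with a median log2 difference of 0.23. For 5 of the 39 the difference was smaller than the standard deviation of single spots. Over all 16164 named genes compared, 51.9% were higher and the median was 0.03. Over the 7888 of them above background on both arrays with a mean level above 0, 54.5% were higher and the median was 0.05. Among the antioxidant genes at such levels, 23 of 32 were higher (71.9%). The differences were small. Glrx was higher by 1.04 and Mgst1 by at least 1.02, while the difference of Gpx8 was -1.59 or lower. These 3 genes (7.69%) were over 2-fold apart, and 19% of all named genes were. No gene of the 40 passed 5-fold, which 2.59% of all named genes did. Among the 32 genes with a mean level above 0, Glrx alone passed 2-fold, against 9.47% of the named genes at such levels. Nfe2l2 alone did so in each comparison with the suppressed pool, against 7.64% (from aging) and 8.48% (from young) of named genes.

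Between the suppressed and the untreated aging pool, the same genes divided about evenly, as all named genes did. Against the untreated aging pool, the median was -0.02, with 19 genes higher and 20 lower, and 49.7% of all 15875 named genes compared were higher, with a median that rounds to 0. Nfe2l2 was higher by 1.43 and Gpx8 by at least 1.02, so that 2 of 39 genes (5.13%) were over 2-fold apart, against 17.3% of all named genes. Against the young pool, the suppressed pool had 21 of 37 genes higher, 16 lower and a median of 0.11, beside 52.4% and 0.03 over all named genes. With a mean level above 0, 18 of 32 antioxidant genes (56.25%) were higher, and so were 56.3% of named genes. Txnrd2 (1.70) and Nfe2l2 (1.55) were over 2-fold apart, and 16.3% of all named genes were. None of the 40 genes passed 5-fold in these comparisons, beside 2.29% and 2.43% of all named genes. The comparisons share arrays, so that a value that stands apart on 1 array enters both comparisons made with it.

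**Figure D2:**
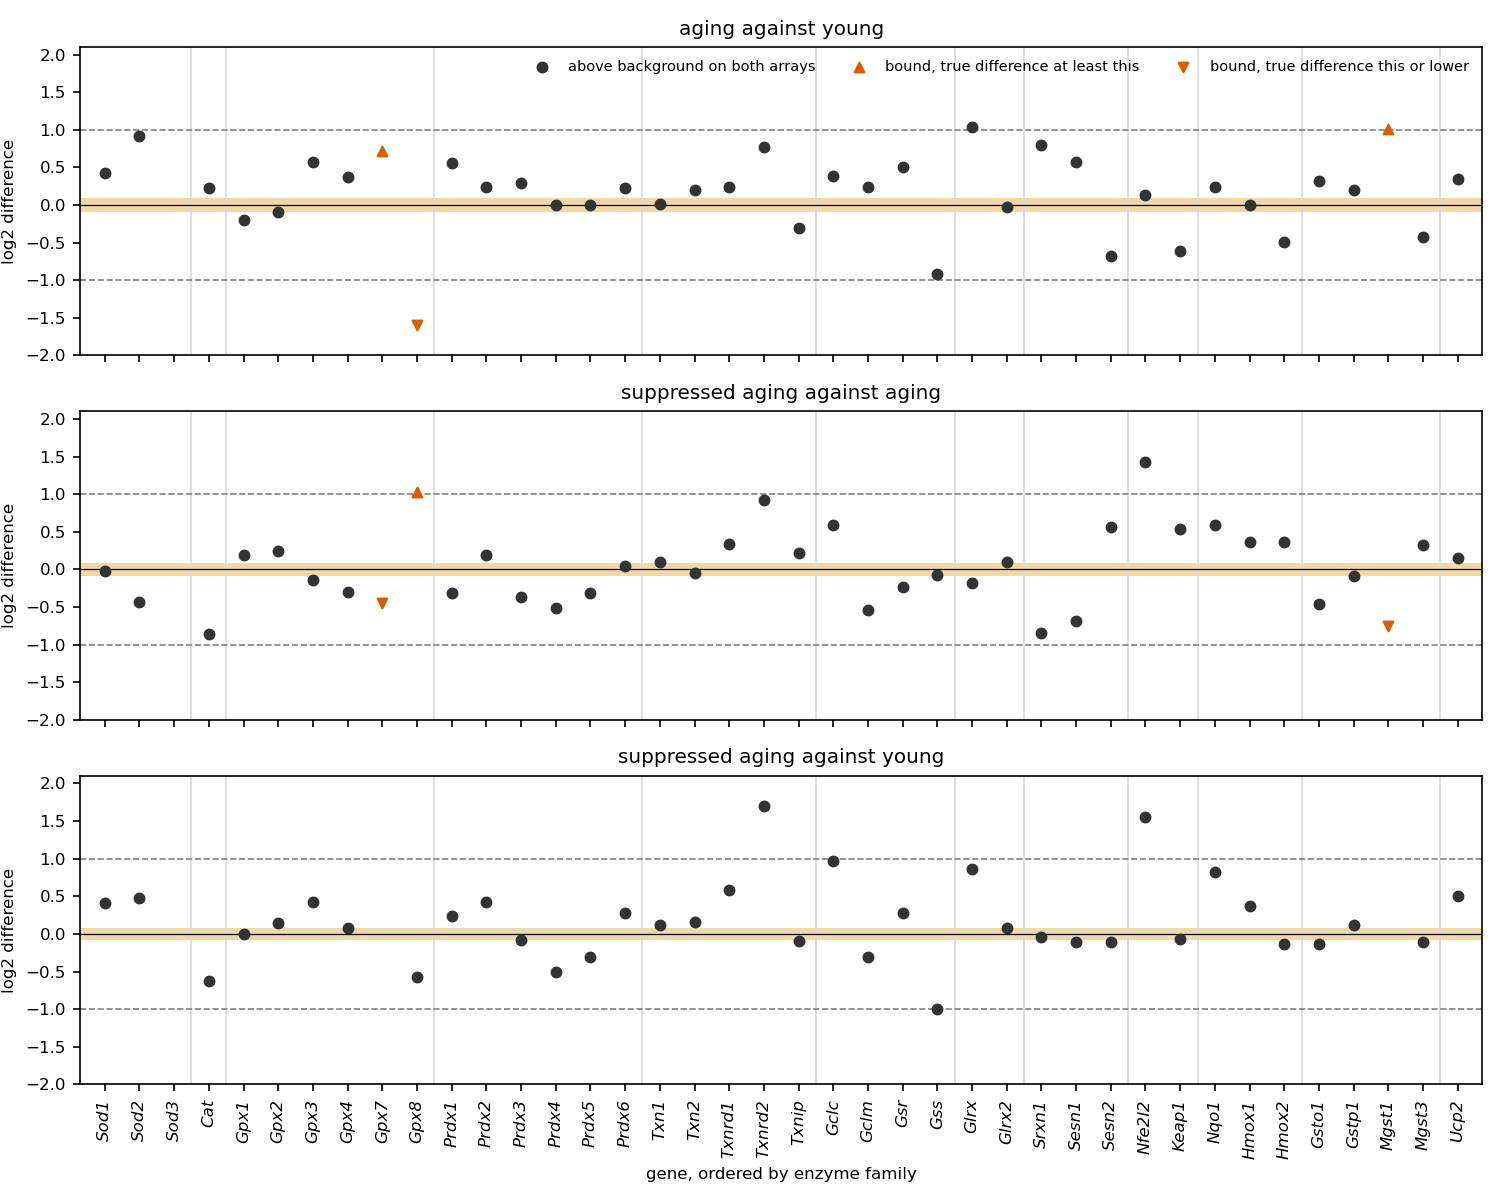
Log2 difference of each gene in the 3 comparisons of pools, 1 per panel, with genes ordered by enzyme family. Dashed lines mark 2-fold, the shaded band is 1 standard deviation of the difference of single spots, triangles are bounds for genes above background on 1 of both arrays, and Nfe2l2 and Txnrd2 are the points above 2-fold in suppressed aging against young.

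Markers of cell types moved between the pools too. In the aging pool, 7 of 8 inner cell mass markers were higher than in the young pool (median 0.72) and 8 of 10 trophectoderm markers were lower (median -0.18). The summed linear level of the inner cell mass list was 1063 in the young, 1284 in the aging and 1188 in the suppressed pool. Most of that sum came from Nanog, with levels of 9.88, 10.14 and 10.03. The trophectoderm list summed to 662, 526 and 603 in the same order. After suppression, 7 of 8 inner cell mass markers were lower (median -0.24) and 8 of 10 trophectoderm markers were higher (median 0.18). Of 7 primitive endoderm markers, 5 were higher in aging against young (median 0.12) and 6 were lower after suppression (median -0.69), with a summed level of 64.1, 71.3 and 58.6 in the young, aging and suppressed pools. Of the 10 oocyte markers, 6 were above background on at least 1 array and 3 on all. Of these 6, 4 were higher in aging against young (median 1.05) and 5 were lower after suppression (median -1.22). The list had a summed level of 16.9, 18.2 and 16.2, mostly from H1f8, at 4.01, 4.02 and 3.95. Nlrp5 (-0.30) and Gdf9 (-0.06) were lower in aging against young. Zp2, of the zona pellucida, had levels of -3.29 and -0.94 in the young and aging pools and was not well above background in the suppressed pool. Bmp15, a growth factor of the oocyte, had levels of -1.25 and -3.45 in the aging and suppressed pools and was not well above background in the young pool. Of the 10 cumulus and granulosa markers, Foxl2, Cyp19a1, Star and Amh were above background on every array, and Fshr, Has2, Ptx3, Tnfaip6, Inha and Lhcgr were on no array. The 4 that were measured were lower in aging against young (median -0.12) and higher after suppression (median 0.26), with a summed level of 406, 374 and 439. Foxl2 made up nearly all of that sum, with levels of 8.66, 8.54 and 8.77. Of 6 blood markers, 3 were above background on at least 1 array, with a summed level of 0.989, 1.78 and 0.558. Hba-a1, a globin, made up most of that sum and was on every array, at -0.36, 0.55 and -1.14. Hbb-b1 was above background in the aging pool alone. Alas2 had levels of -2.76 and -3.53 in the young and aging pools and was not well above background in the suppressed pool. Of these 3 markers, 2 were higher in aging against young (median 0.91) and all were lower after suppression (median -1.57). Of 5 oviduct markers, Ovgp1 and Wt1 were above background in the suppressed pool alone and the others on no array. Of 6 sperm markers, 4 were above background on every array, with a summed level of 1.78, 1.45 and 1.59. The part of cell composition and of other cells' RNA in the values of the antioxidant genes was not tested.

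Superoxide dismutases were higher in both aging pools. Sod1, the cytosolic enzyme, had a level of 6.25 in the young, 6.68 in the aging and 6.66 in the suppressed pool. Sod2, the mitochondrial enzyme, had levels of 3.15, 4.07 and 3.63 in the same order. Both aging pools lay above the young pool for both genes, by 0.43 and 0.41 for Sod1 and by 0.92 and 0.48 for Sod2, and this held under every way of scaling the arrays. Cat, the catalase of peroxisomes, had levels of -0.12, 0.10 and -0.75, so that the suppressed pool was the lowest, with a difference of -0.85 from the aging pool. Over the alternatives this difference lay between -0.94 and -0.55.

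The glutathione peroxidases did not move as a group. Of 6 genes compared in aging against young, 3 were higher and 3 lower. Gpx1, the abundant cytosolic enzyme, had levels of 8.72, 8.52 and 8.71 in the young, aging and suppressed pools. Gpx4, which reduces lipid peroxides in membranes, had levels of 6.24, 6.61 and 6.32. Gpx3, the secreted enzyme, had levels of 0.63, 1.19 and 1.05, and Gpx2, first described in the gut, of -0.39, -0.49 and -0.24. For these 4 selenium enzymes the pools lay within 0.57 of each other. The order of the suppressed and young pools turned under 1 background correction for Gpx2 and Gpx4. Gpx7 and Gpx8, which act in the endoplasmic reticulum, lay near the detection limit. Gpx7 had a level of -3.49 in the aging pool and was not well above background in the others, a difference of at least 0.71 against young. Gpx8 had levels of -2.73 in the young and -3.30 in the suppressed pool and was not well above background in the aging pool. Its difference between suppressed aging and young turned from -0.57 to 0.05 under 1 background correction.

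Peroxiredoxins, which reduce peroxides with a cysteine of their own, were level or slightly higher in the aging pool. The 6 genes had a median difference of 0.23 against young, from 0.00 to 0.55. Prdx1 had levels of 4.77, 5.33 and 5.01 in the young, aging and suppressed pools, Prdx2 of 2.45, 2.69 and 2.88, and Prdx6 of 3.56, 3.79 and 3.84. Prdx3, the mitochondrial enzyme, had levels of 1.45, 1.74 and 1.38. The aging level equalled the young one within 0.01 for Prdx4, of the endoplasmic reticulum, at 1.66, 1.66 and 1.15, and for Prdx5 at 5.11, 5.11 and 4.80. For Prdx4 and Prdx5 the sign against young turned with the scaling, which left 4 of 6 genes higher at the fewest. Suppression was followed by lower values for 4 of the 6 genes (Prdx1, Prdx3, Prdx4 and Prdx5) and higher values for Prdx2 and Prdx6. The sign of Prdx2 turned under 1 background correction, and that of Prdx6 turned with the scaling. The other 2 probes of Prdx1 were higher in the suppressed than in the aging pool, by 0.24 and 0.17, where the brightest gave -0.32.

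The thioredoxin system had 4 of 5 genes higher in the aging pool, under every scaling. Txn1, the cytosolic thioredoxin, had levels of 6.88, 6.89 and 6.99 in the young, aging and suppressed pools, and Txn2, its mitochondrial counterpart, of 2.08, 2.29 and 2.24. Txnrd1, the cytosolic thioredoxin reductase, had levels of 4.32, 4.56 and 4.90. Its second probe had levels of 1.25, 1.19 and 1.75, so that both probes were highest in the suppressed pool. Txnip, which binds and inhibits thioredoxin, was lowest in the aging pool by both probes, with levels of 1.59, 1.28 and 1.49 on the brighter and 0.76, -0.06 and 1.10 on the other. Txnrd2, the mitochondrial reductase, had the widest spread of the 36 genes. Its levels were -1.79, -1.01 and -0.08 on the brighter probe and -3.56, -1.81 and -2.69 on the other. Both probes were lowest in the young pool. Between the suppressed and the aging pool they were opposed, at 0.93 and -0.88, and the mean of both probes gave a difference of 0.02.

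Glutathione is made by the glutamate-cysteine ligase, of a catalytic (Gclc) and a modifier subunit (Gclm), and by glutathione synthetase (Gss). The subunits of the ligase differed in direction. Gclc had levels of -0.62, -0.24 and 0.36 in the young, aging and suppressed pools, a difference of 0.98 between suppressed aging and young. Gclm had levels of 1.48, 1.72 and 1.18, with the lowest value in the suppressed pool. Gsr, the glutathione reductase, had levels of 4.29, 4.80 and 4.57. Gss was lower in both aging pools on its brighter probe, at 4.89, 3.97 and 3.89, and nearly level on the other, at 1.66, 1.61 and 1.95. The differences against young were therefore -0.92 and -0.996 on the first and -0.06 and 0.28 on the second probe.

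Glutaredoxins reduce disulfides that involve glutathione. Glrx, the cytosolic enzyme, was measured by 1 probe and was higher in both aging pools, at 3.42, 4.46 and 4.28. The difference against young lay between 1.02 and 1.08 over the alternatives for the aging pool and between 0.81 and 0.89 for the suppressed pool. Glrx2, of mitochondria, had levels of 9.13, 9.11 and 9.21 on its brighter probe, the narrowest spread of the 36 genes, and of 1.85, 2.14 and 2.08 on the other. Every direction given by the brighter Glrx2 probe turned with the scaling.

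Srxn1 and Sesn1 were highest in the aging pool. Srxn1, the sulfiredoxin that repairs overoxidized peroxiredoxins and a target of NRF2, had levels of 0.63, 1.43 and 0.59 in the young, aging and suppressed pools. Sesn1, a sestrin induced by p53, had levels of 0.82, 1.39 and 0.71. Sesn2, the sestrin of the stress responses that limit mTORC1, took the opposite order, at 2.85, 2.18 and 2.74. For Srxn1, the differences were 0.80 in aging against young and -0.84 after suppression, for Sesn1 0.58 and -0.69, and for Sesn2 -0.67 and 0.56. Both differences of a gene rest on the same aging array.

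Nfe2l2 had the largest difference after suppression among the 36 genes measured in every pool, by the brightest probe of each. Gpx7, Gpx8 and Mgst1 have bounds there and cannot be ranked. Its level was 0.69 in the young, 0.82 in the aging and 2.24 in the suppressed pool, so that the untreated pools lay close together and the suppressed pool lay above both. The intensities behind these levels were 233, 272 and 579. The difference from the aging pool was 1.43 and lay between 0.97 and 1.44 over the alternatives. A further probe, for a non-coding transcript of Nfe2l2, was above background in the suppressed pool alone, with a level of -3.67, near the detection limit of -3.93. Its bounds were 0.51 from the aging and 0.40 from the young pool. The intensities of this probe were nearly equal, at 8.64, 8.52 and 9.63 in the young, aging and suppressed pools. It therefore gives no second reading of the difference. Keap1, whose product restrains NRF2, had levels of 2.89, 2.27 and 2.81. The difference was -0.61 in aging against young and 0.54 after suppression.

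Nqo1 and the heme oxygenases were higher after suppression. Nqo1, the quinone reductase used as a standard readout of NRF2, had levels of -0.18, 0.05 and 0.64 in the young, aging and suppressed pools. Hmox1, the inducible heme oxygenase, had levels of 2.99, 2.99 and 3.36. Hmox2, the constitutive enzyme, had levels of 2.93, 2.44 and 2.80. All 3 genes were higher in the suppressed than in the aging pool under every alternative, with a median of 0.37, and Hmox2 remained below its young level.

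Among the 40 genes, 11 were listed as NRF2 targets: Prdx1, Txn1, Txnrd1, Gclc, Gclm, Gsr, Srxn1, Nqo1, Hmox1, Gpx2 and Gstp1. In aging against young, the median was 0.24, with 9 genes higher and 2 lower. After suppression, when Nfe2l2 was higher, the median was 0.10, with 6 genes higher and 5 lower. This near-0 median depended on the processing, at 0.02 with normexp background correction, 0.01 with the authors' values and -0.03 with quantile normalization (5 higher and 6 lower), and the mean over probes gave 7 higher and 4 lower. Txnrd1 (0.34), Gclc (0.59), Nqo1 (0.59) and Hmox1 (0.37) were among the higher, and Prdx1 (-0.32), Gclm (-0.54), Gsr (-0.23) and Srxn1 (-0.84) among the lower. Of the genes whose promoter windows are printed above, Nfe2l2 and Txnrd1 were thus higher and Gclm lower after suppression. Prdx1 was lower on its brightest probe and higher on the other 2, with a mean over probes of 0.03. Srxn1, whose match is not printed, was lower (-0.84). A further list of NRF2 targets had 25 genes on the array. Of the 23 that could be compared, 13 were higher and 10 lower in aging against young (median 0.38), and 11 were higher and 12 lower after suppression (median -0.05). Cbr3, a carbonyl reductase, had levels of 0.40, 1.07 and -1.29, a difference of -2.36 after suppression. Gstm3, a glutathione transferase, had levels of -2.05, -0.16 and 0.46.

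The glutathione transferases and Ucp2 complete the set. Gsto1 had levels of 5.29, 5.62 and 5.16 in the young, aging and suppressed pools, and Gstp1, which conjugates glutathione to electrophiles, of 5.17, 5.38 and 5.28. Mgst3, of membranes, had levels of 4.30, 3.88 and 4.20 and was lowest in the aging pool. Mgst1, of microsomes and mitochondria, had a level of -3.18 in the aging pool and was not well above background in the others, and its second probe was above background on no array. Ucp2, a carrier of the inner mitochondrial membrane, had levels of 2.04, 2.39 and 2.54 on its brighter probe. Its second probe had levels of -1.50, -3.55 and -1.79, so that the aging pool was the lowest, with a difference of -2.06 from young, opposed to the 0.35 of the brighter probe.

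Other probes of the same gene gave a second reading of the same RNA, though not of another pool. There were 12 genes with at least 2 probes above background on both arrays. In aging against young, all probes of a gene took the same direction for 9 of these 12 genes (75%), against 50.9% of 4861 named genes. After suppression the count was 7 of 12 (58.3%), against 49.3%, and in suppressed aging against young it was 8 of 12 (66.7%), against 50.2%. All of the 12 but Prdx1 had 2 measured probes, while the named genes had 2 or more and any level, so these shares are not matched. The 26 genes with 1 probe have no second reading. Prdx2, Hmox2 and Gsto1 had both probes in 1 direction in every comparison. Txnrd2, Ucp2 and Gss, with differences of 0.92 or more on at least 1 probe, were among the genes whose probes disagreed in at least 1 comparison.

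**Figure D3:**
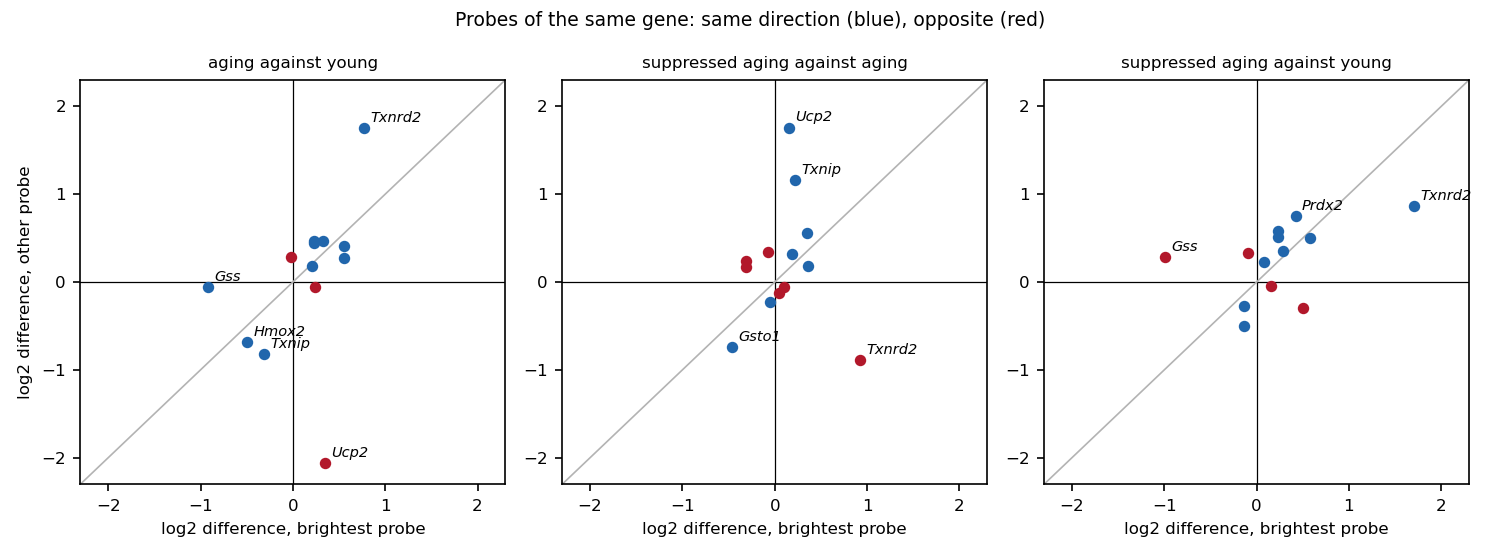
Log2 difference on the brightest probe of a gene (horizontal) and on each other probe of that gene (vertical) in the 3 comparisons, for 12 genes with at least 2 measured probes. Blue points have the same direction on both probes and red points opposite directions, the diagonal marks equal differences, and Txnrd2 and Ucp2 lie far from it.

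By place in the cell, 6 of 7 mitochondrial genes (Sod2, Prdx3, Prdx5, Txn2, Txnrd2, Glrx2 and Ucp2) were higher in the aging than in the young pool, with a median of 0.29. Between 5 and 7 of them were higher over the scalings of the arrays. After suppression the median was -0.05, with 3 genes higher and 4 lower. Of the 6 selenocysteine enzymes Gpx1, Gpx2, Gpx3, Gpx4, Txnrd1 and Txnrd2, 4 were higher in the aging pool (median 0.31) and 4 after suppression (median 0.22). The 7 genes that make selenocysteine and insert it into protein were all above background, with 5 higher and 2 lower in aging against young (median 0.25) and 2 higher and 5 lower after suppression (median -0.36).

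Over the whole set, the aging array held the highest level for 17 of the 36 genes, the suppressed array for 12 and the young array for 7. Over 13811 named genes these shares were 35.8%, 33.3% and 30.9%. They were 36.9%, 34.3% and 28.8% over the 7888 with a mean level above 0. The young array held the lowest level for 18 of the 36 genes, against 36.7% of all named genes and 39.6% of those with a mean level above 0. The plot of difference against level shows where the 40 genes lay among all genes. They filled the upper part of the range of levels, where differences between the arrays were smaller for all genes.

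**Figure D4:**
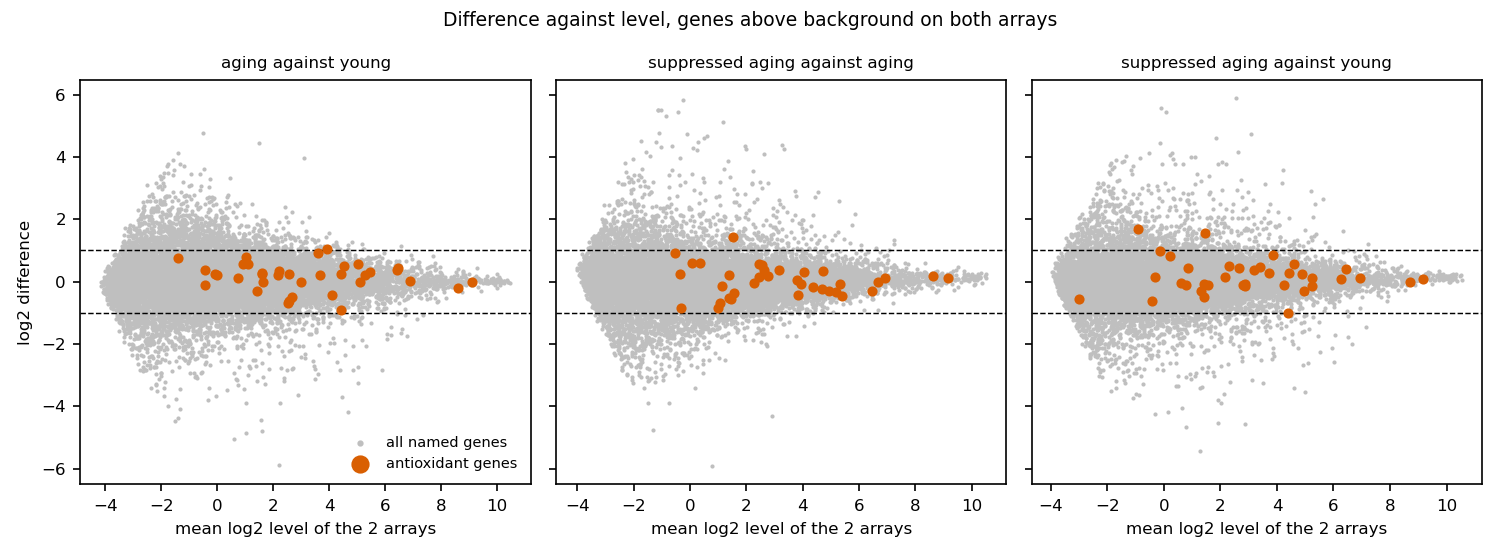
Log2 difference against the mean log2 level of both arrays for named genes above background on both (grey) and for the antioxidant genes (orange), in the 3 comparisons, with dashed lines at 2-fold. The orange points lie mostly between the dashed lines, and the spread of the grey points narrows as the level increases.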

How the data were processed

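RNA from 1 pool of 30 blastocysts per group was hybridised to 1 Agilent array with 1 colour (Cy3). The labels name a low-input cRNA labelling kit and the study's methods a single-primer PCR amplification, and which was used for these arrays could not be settled. The deposited values are linear spot intensities, background-subtracted and detrended by Agilent Feature Extraction 12.0.3.1, with no normalization between arrays. Their table of processed values equals that intensity times 1 factor per array (3.46, 3.34 and 3.96).

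Control spots and outlier spots (100, 85 and 118) were left out, no spot was saturated, log2 values of replicate spots were averaged, and each array was centred on its 75th percentile. Probes were named through RefSeq transcripts. A gene above background on 1 of both arrays gives a bound, taken against the detection limit. Analyses used Python 3.11.15, NumPy 2.4.6, pandas 2.3.3 and Matplotlib 3.10.9, with R 4.3.3 and limma 3.58.1 for the normexp (offset 50) alternative. Quantile normalization was done in Python. The analyses were tested on simulated data. No P-value was computed. The genes and lists were chosen with earlier results of these data known. All 40 genes are named, each one measured with its levels and those over 2-fold apart with all their probes. Genes of other lists could be named where over 5-fold apart, and markers named beside them were chosen after their values were seen. A protein sequence comparison was planned and not run, for want of a protein table.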

Additional observations from a re-analysis of the deposited data

How the results depend on the processing

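Each value was recomputed under 9 alternatives: normexp background correction, quantile normalization, centring on probes that every array detected, centring on 15 housekeeping genes, the authors' processed values, outlier spots kept, a mean of all probes per gene, genes above background on both arrays only, and no filter on dim probes. The direction over the ways of background correction and scaling was the same for 34 of 39 genes in aging against young, 34 of 39 in suppressed aging against aging and 31 of 37 in suppressed aging against young. The number of genes over 2-fold apart (3, 2 and 2 in these comparisons) became 1, 1 and 1 after normexp. In suppressed aging against aging it was 1 with housekeeping centring, 1 with the authors' values, 1 with the mean over probes, 1 with genes above background on both arrays and 4 without the filter. For suppressed aging against young it was 1 with the mean over probes, 4 without the filter and 3, with Gss, under quantile normalization, housekeeping centring and the authors' values. For aging against young it was 1 with genes above background on both arrays and 4 with the mean over probes or without the filter. Without the filter, 1 gene passed 5-fold in aging against young and 1 in suppressed aging against aging. The median in suppressed aging against aging became -0.10 with quantile normalization and -0.11 with the authors' values. The cause of these shifts was not tested. Of the counts and medians so recomputed, 69 stayed close to the reported value and 15 moved. The median in aging against young lay between 0.18 and 0.28 and that in suppressed aging against young between 0.05 and 0.12, while the near-0 median in suppressed aging against aging took either sign, up to 0.02 with the mean over probes.

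No paired analysis was possible because there was 1 array per group, and leaving out a replicate had no meaning. Signal over background limits Gpx7, Gpx8 and Mgst1, which have bounds, and the number of arrays limits every comparison.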

Other observations

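Of 10 genes on the array that make oxidants, Cyba, Cybb, Noxa1 and Duox1 were above background in every pool. Nox1, Nox3, Xdh and Aox1 were on no array, and Nox4 and Noxo1 were above background in the suppressed pool alone, so that their direction was set by detection. The 4 genes measured in every pool were at higher levels in the suppressed than in the aging pool, by 0.44 to 1.53, and than in the young pool, by 0.18 to 2.14, beside 49.7% and 52.4% of all named genes that were higher. In aging against young 2 of these 4 were higher. Duox1, the dual oxidase, had levels of -3.41, -2.79 and -1.27 in the young, aging and suppressed pools, and Cyba, the shared membrane subunit of NADPH oxidases, of 2.05, 2.59 and 3.09. These genes are named although they did not pass 5-fold, since they were singled out after their values were seen.

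Of 25 further glutathione and thioredoxin enzymes, 21 could be compared in aging against young, with 7 higher and 14 lower (median -0.38). Mgst2, a microsomal transferase, had levels of -3.41, -1.79 and 0.44 in the young, aging and suppressed pools. Gsto2, which also reduces dehydroascorbate, had levels of 0.16, -0.40 and -2.98. Msra, the methionine sulfoxide reductase, had levels of -0.96 and -1.86 in the young and aging pools and was not well above background in the suppressed pool. Among 9 NRF2 partners and regulators that could be compared, 4 were higher and 5 lower in aging against young (median -0.13). Cxcl5 was above background in the young pool alone, at -3.71, and Cxcr2 in the suppressed pool alone, at -3.12. Both lay near the detection limits of these arrays, -4.20 and -3.93. Detection in 1 pool therefore does not show a change with age or treatment. By RT-PCR, another measure, the paper reported more Cxcl5 in aging than in young blastocysts and no change of Cxcr2 with age.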
